A study of Mus musculus with 6 samples.

Results

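Tetraspanins are small proteins that thread the cell membrane repeatedly and gather integrins, immunoglobulin-type proteins and proteases into clusters on the cell surface. Some restrain or help the fusion of cells: in mouse muscle, CD9 and CD81 are known to limit the fusion of myoblasts during regeneration. A subfamily called TspanC8 carries the protease ADAM10, which cuts Notch receptors and cadherins, to the cell surface. The family here comprised the 30 rows, of 56792 gene rows in the table, whose symbol is Tspan with a number, Cd9, Cd37, Cd53, Cd81, Cd82, Cd151, Prph2, Rom1, Upk1a or Upk1b. The genes were chosen by symbol, but the family was picked with values of this same comparison known, the steep fall of Cd53 among them, so counts over its members are a description.

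The RNA came from C2C12, an established mouse myoblast line whose cells fuse into myotubes when serum is lowered. All cells were wild type and had differentiated for 4 days in medium with 2% horse serum. The lenvatinib group (3 libraries) also received 1 µM lenvatinib, an inhibitor of the receptor kinases of vascular endothelial and fibroblast growth factors, and the untreated group (3 libraries) did not. Separate cultures for the replicates, a solvent control and the time of adding the drug are not stated in the labels. All p-values therefore measure only the spread among these libraries, and that spread may be technical.

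Counts summed to 24585849, 24566768 and 32406563 in the lenvatinib libraries and to 26597093, 25529288 and 28886472 in the untreated libraries. Levels are given as CPM, a row's count scaled to a common library total (TMM). They are written library by library, in the order of replicates 1 to 3, or as mean ± SD (n = 3). Where genes are compared with each other, CPM is divided by the feature length in kilobases (CPM per kb). Each log2 fold change is lenvatinib over untreated ± SE. The edgeR quasi-likelihood test gave p-values for 14989 rows, which were adjusted over all of them by the Benjamini-Hochberg method and called under 0.05. Markers of differentiated muscle were abundant: all 7 were tested and summed to 13400 CPM in every lenvatinib library and 12700 to 13100 CPM in untreated ones. Of these, 5 rose and 1, the intermediate filament gene Des, fell with lenvatinib, among the risers Myog with 0.28 ± 0.02 (adjusted p = 6.51e-12). Fibroblast markers summed to 3210 to 3280 CPM in lenvatinib libraries and 3100 to 3190 CPM in untreated ones, with 1 of 4 tested higher (Col1a1) and 1 lower (Pdgfra). Most of this sum was the collagen gene Col3a1, with 2540 CPM with lenvatinib and 2571 CPM without it. Lum had 10 counts in lenvatinib libraries and 32 in untreated ones, Thy1 had 0 and 2, and neither was tested. For both marker lists the background is 28.2% called over all rows tested. Endothelial markers summed to at most 1.43 CPM in any library. In bulk RNA, fewer cells of a type and less RNA per cell cannot be told apart.

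Of the 30 tetraspanins, 2 (Cd37 and Prph2) had no count in any library, 5 more had too few counts to be tested and 23 were tested. With lenvatinib 7 rose, 8 fell, Cd53 and Tspan11 among them, and 8 did not pass. Over all rows tested, 28.2% were called, 13.3% as higher and 14.9% as lower, and among the 9473 rows with a mean of at least 10 CPM the share was 33.9%. Cd53 and Tspan11 passed the filter on low counts only through the untreated group, and the family was chosen on this contrast, so nothing is read from the members' share. In 17 of the 23 tested members the groups did not overlap, against 40.1% of all rows tested. The median log2 fold change of the tested members was -0.01, beside 0.00 over all rows tested. The called members had a median absolute log2 fold change of 0.25, the same to 2 decimals as all called rows, and only Cd53 and Tspan11 moved at least 2-fold. All 30 together summed to 2133 ± 30.9 CPM in lenvatinib libraries and 2101 ± 34.4 CPM in untreated libraries, ranges that overlap.

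**Figure D1:**
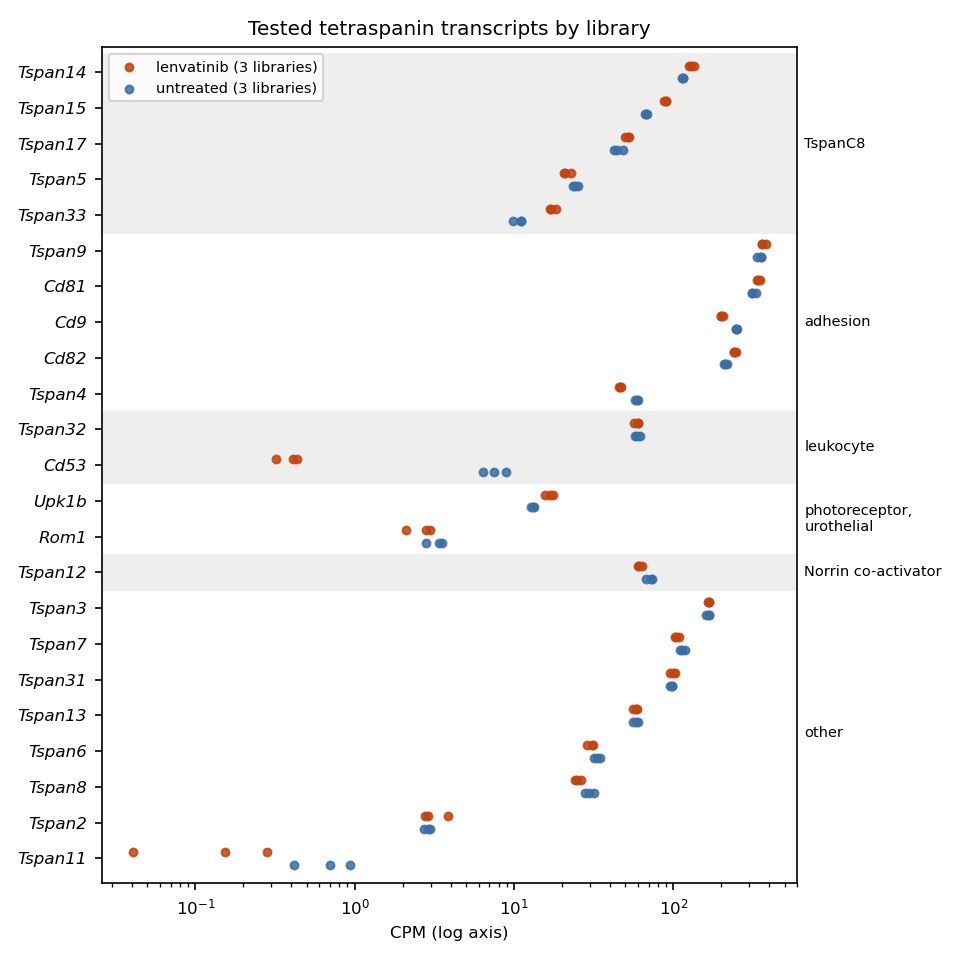
CPM of the 23 tested tetraspanins in each library on a log axis, grouped by role; each point is 1 library, lenvatinib above untreated in each row. Cd53 lies between 0.323 and 0.432 CPM in lenvatinib libraries and between 6.42 and 8.97 CPM in untreated ones, while most other members differ little on this scale.

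Promoter sequence is shown for 4 members: Cd53 with the steepest fall, Tspan33 and Tspan15 as the ADAM10 regulators with the largest rises, and Cd9, which fell and had the highest level per length. Each is the 250 bases before the RefSeq start on the gene's strand (build GRCm38.p6), 5′ to 3′, with any motif searched in capitals.
Cd53, chr3:106790150-106790399, minus strand: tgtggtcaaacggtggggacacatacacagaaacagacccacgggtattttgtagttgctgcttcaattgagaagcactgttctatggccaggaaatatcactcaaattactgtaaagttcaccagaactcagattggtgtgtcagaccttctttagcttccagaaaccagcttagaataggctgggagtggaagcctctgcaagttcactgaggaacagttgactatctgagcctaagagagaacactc
Tspan33, chr6:29693964-29694213, plus strand: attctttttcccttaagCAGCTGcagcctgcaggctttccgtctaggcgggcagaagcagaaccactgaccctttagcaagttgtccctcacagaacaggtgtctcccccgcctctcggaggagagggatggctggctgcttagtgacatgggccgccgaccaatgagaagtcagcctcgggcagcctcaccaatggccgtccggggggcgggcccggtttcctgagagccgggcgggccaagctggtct
Tspan15, chr10:62231219-62231468, minus strand: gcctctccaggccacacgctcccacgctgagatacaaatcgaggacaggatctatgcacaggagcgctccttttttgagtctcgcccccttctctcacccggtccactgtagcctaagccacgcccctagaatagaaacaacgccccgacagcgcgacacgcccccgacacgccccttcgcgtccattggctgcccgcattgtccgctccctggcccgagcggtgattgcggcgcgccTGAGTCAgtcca
Cd9, chr6:125494761-125495010, minus strand: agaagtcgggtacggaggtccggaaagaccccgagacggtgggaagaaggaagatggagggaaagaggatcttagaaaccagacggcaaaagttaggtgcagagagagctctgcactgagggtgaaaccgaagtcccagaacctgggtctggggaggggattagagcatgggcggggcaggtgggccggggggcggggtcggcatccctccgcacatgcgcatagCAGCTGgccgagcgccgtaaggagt
The capitals in Tspan33 and Cd9 mark the E-box CAGCTG, a binding sequence of muscle regulators such as MyoD, which begins 233 bases before the start in Tspan33 and 25 bases before it in Cd9. Those in Tspan15 mark a match to the AP-1 motif TGANTCA that begins 12 bases before the start. Both motifs read the same on either strand. The Cd53 window held no motif searched, and with 45.2% GC and 2 CpG it was poorer in both than the median of all windows (52.4% GC, 6 CpG).

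Windows were found for 28 of the 30 members, 38 windows in all, some members having several; Upk1b and Tspan18 were not matched. Both strands were searched, and the share of all 32841 windows of the same length with each motif is the background. The E-box stood in 2 of 6 matched genes that rose (Cd81, Tspan33), 2 of 8 that fell (Cd9, Tspan7), 1 of 8 that did not pass (Tspan32) and 1 of 6 not tested (Tspan10), and in 13.0% of all windows. AP-1 was found in Tspan15 alone among the members and in 6.75% of windows. A PU.1-type ETS motif (GAGGAAG) stood in 2 of 6 genes that rose (Cd82, Tspan14), in none of 8 that fell, in 4 of 8 that did not pass, in 1 of 6 not tested (Cd37) and in 10.6% of windows. The ETS motif CCGGAAG (6.91% of windows) was found in Tspan11, Rom1 and Tspan32, and TATAAA (12.4%) in Tspan12. No member window held a CArG box (1.47%) or the core of the interferon-stimulated response element (2.98%). Such matches are letters in a window and do not show a bound factor; genes with several windows had more chances of a match.

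Most of the TspanC8 tetraspanins rose with lenvatinib: of 5 tested members 4 rose and 1, Tspan5, fell. Over all rows tested 13.3% were called higher and 14.9% lower. The subfamily belongs to a family chosen on this contrast, so its count is a description. Tspan33, known from red blood cell development and activated B cells, had 18.3, 16.9 and 17.0 CPM in lenvatinib libraries, against 9.92, 11.0 and 11.0 CPM in untreated libraries. Every lenvatinib library stood well above all untreated ones, and the log2 fold change of 0.70 ± 0.08 (adjusted p = 1.5e-09) corresponds to 1.63-fold. Tspan15, which directs ADAM10 to N-cadherin, had 89.4, 90.4 and 87.0 CPM with lenvatinib and 68.2, 66.7 and 67.1 CPM without it. Its groups were far apart relative to their spread, with a log2 fold change of 0.40 ± 0.04 (adjusted p = 7.31e-12).

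Tspan14, a broadly expressed ADAM10 partner, had 126, 135 and 129.7 CPM in lenvatinib libraries and 113, 115 and 115.5 CPM in untreated ones. The groups did not overlap, and the log2 fold change was 0.18 ± 0.03 (adjusted p = 2.42e-05). Tspan17 had 49.8, 51.7 and 53.0 CPM with lenvatinib and 44.2, 48.0 and 42.5 CPM without it. Untreated replicate 2 came within 2 CPM of the lowest lenvatinib library, and the log2 fold change was 0.20 ± 0.05 (adjusted p = 8.49e-04). Tspan5, which with Tspan14 favours the cutting of Notch in human cells, went the other way, with 20.5, 22.8 and 20.9 CPM in lenvatinib libraries against 23.5, 24.2 and 25.1 CPM in untreated libraries. The groups lay close without overlapping, at a log2 fold change of -0.18 ± 0.06 (adjusted p = 0.0228). This call was lost with DESeq2 (adjusted p = 0.0739) and without lenvatinib replicate 1 (0.104), lenvatinib replicate 3 (0.0941) or untreated replicate 3 (0.102). The remaining member, Tspan10, had 1 count in lenvatinib libraries and none in untreated ones.

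The balance within the subfamily moved with these changes. Summed over the subfamily, the level was 66.7 ± 1.39 CPM per kb in lenvatinib libraries and 57.1 ± 1.57 CPM per kb in untreated libraries, with the lowest lenvatinib library at 65.2 and the highest untreated one at 58.9. Adam10, the protease they carry, stood at 23.8 ± 0.412 CPM per kb with lenvatinib and 23.1 ± 0.525 CPM per kb without it, with overlapping groups and a log2 fold change of 0.04 ± 0.03 (adjusted p = 0.352). Tspan33 exceeded Tspan5 per length in every lenvatinib library, at ratios of 1.26, 1.04 and 1.15, and stood below it in every untreated one, at 0.596, 0.643 and 0.620. This crossing rests on the deposited feature lengths, 5321 bases for Tspan33 and 7508 bases for Tspan5. In CPM, Tspan33 stood below Tspan5 in every library of both groups. In both groups Tspan17 held the largest share of the subfamily's CPM per kb, 44.3% ± 0.865 with lenvatinib and 45.1% ± 1.59 without it, followed by Tspan14 with 31.0% ± 0.5 in lenvatinib and 31.9% ± 0.873 in untreated libraries. Tspan33 and Tspan5, whose ratio per length turned, each held under 6% in either group.

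**Figure D2:**
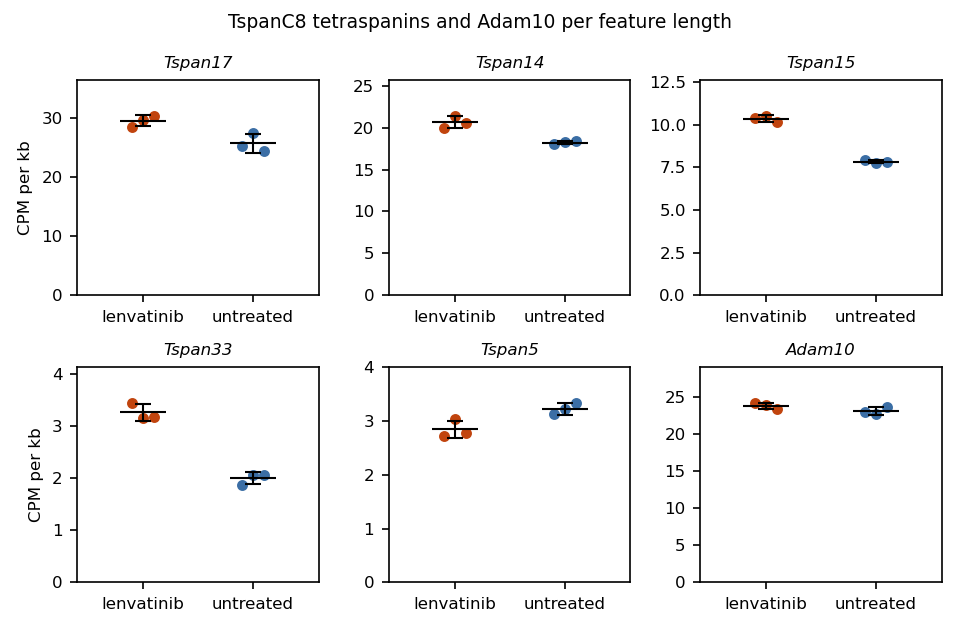
CPM per kb of the 5 tested TspanC8 tetraspanins and of Adam10, lenvatinib left and untreated right; points are libraries, the long bar is the mean and the whisker the SD (n = 3), and each panel has its own axis from 0. Tspan33 sits at 3.26 CPM per kb with lenvatinib and 2.00 CPM per kb untreated, while the Adam10 groups overlap.

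ADAM10 substrates did not share a direction. Of 12 tested genes in the list of ADAM10 and its substrates, 4 rose, 3 fell and 5 did not pass. Their median log2 fold change was 0.03, and 28.2% of all rows tested were called. The Notch receptors split: Notch1 rose to 81.2 ± 5.66 CPM in lenvatinib libraries, against 57.9 ± 1.34 CPM in untreated ones (log2 fold change 0.49 ± 0.04, adjusted p = 1.25e-11), and Notch3 fell to 46.3 ± 0.908 CPM with lenvatinib, against 75.8 ± 2.14 CPM without it (-0.71 ± 0.04, adjusted p = 5.25e-18). Jag1, a Notch ligand, rose by 0.56 ± 0.08 (adjusted p = 9.6e-07) and Cd44, a hyaluronan receptor, by 0.26 ± 0.03 (adjusted p = 1.76e-09) on the log2 scale. N-cadherin (Cdh2), the substrate linked to Tspan15, had 396.0 ± 1.43 CPM with lenvatinib and 378 ± 2.86 CPM without it, and its rise of 0.07 ± 0.03 (adjusted p = 0.0461) was lost whichever library was left out (adjusted p 0.0642 to 0.121). The other 2 that fell, named after their values were seen, were E-cadherin (Cdh1, -0.65 ± 0.11, adjusted p = 1.57e-05) and the chemokine Cxcl16 (-1.36 ± 0.23, adjusted p = 1.02e-05), each under 10 CPM in every library.

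Among the adhesion tetraspanins the 2 closely related fusion regulators of muscle moved in opposite directions. Cd9 had 204, 197 and 200.3 CPM in lenvatinib libraries, against 249, 251 and 246 CPM in untreated libraries. All lenvatinib values lay over 40 CPM below the lowest untreated one, and the log2 fold change was -0.31 ± 0.03 (adjusted p = 8.7e-12). Cd81 had 335, 348 and 339 CPM with lenvatinib and 312, 329 and 311 CPM without it. These groups did not overlap, although untreated replicate 2 came close, and the log2 fold change was 0.10 ± 0.03 (adjusted p = 4.49e-03). The ratio of Cd9 to Cd81 per length was accordingly 1.72 ± 0.0622 in lenvatinib libraries and 2.28 ± 0.0558 in untreated ones.

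Cd82, a tetraspanin found on human muscle stem cells, had 239.5, 241 and 248 CPM in lenvatinib libraries and 210.0, 217 and 207 CPM in untreated libraries. It rose in all 3 by more than the spread between libraries, with a log2 fold change of 0.20 ± 0.03 (adjusted p = 3.91e-07). Tspan4, which builds the vesicles called migrasomes behind moving cells, had 47.1, 45.4 and 46.0 CPM with lenvatinib and 57.4, 60.3 and 59.0 CPM without it. Here lenvatinib libraries were clearly lower, at -0.35 ± 0.04 on the log2 scale (adjusted p = 1.02e-08). Its row overlaps that of Chid1 by 292 bases on the other strand, and no source used here says whether reads were counted by strand. Tspan9, known from platelets, had 362, 380.3 and 359 CPM in lenvatinib libraries and 337, 356 and 353 CPM in untreated ones. The groups did not overlap, but the log2 fold change of 0.07 ± 0.03 missed the threshold (adjusted p = 0.0531), with a 95% interval from 0.02 to 0.13 before adjustment. Without lenvatinib replicate 1 it passed (adjusted p = 0.0437), and so it did without lenvatinib replicate 3 (0.0392) or untreated replicate 2 (0.0317). Cd151, a partner of laminin-binding integrins, was close to 0 with 10, 5 and 20 counts in lenvatinib libraries and 9, 7 and 6 counts in untreated libraries. A row near 0 in this table can belong to a gene that every cell uses, since the ribosomal protein row Rps10 held 4, 0 and 5 counts with lenvatinib and 6, 3 and 8 counts without it, so the Cd151 row is given as listed.

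Per length, the order of the 6 highest members was the same in both groups: Cd9, Cd82, Tspan9, Cd81, Tspan31 and Tspan3. Cd9 led with 98.2 CPM per kb in lenvatinib libraries and 121 CPM per kb in untreated ones, and Cd82 followed with 80.8 CPM per kb with lenvatinib and 70.3 CPM per kb without it. Their distance narrowed, Cd82 reaching 0.823 ± 0.0232 of the level of Cd9 with lenvatinib and 0.579 ± 0.00932 without it. Next came Tspan9 with 63.2 CPM per kb in lenvatinib libraries and 60.1 CPM per kb in untreated ones, and Cd81 with 57.2 CPM per kb in lenvatinib libraries and 53.3 CPM per kb in untreated ones. This order depends on the deposited feature lengths, 2044 bases for Cd9, 5953 for Cd81 and 5804 for Tspan9. In CPM, Tspan9 and Cd81 stood above Cd9 in both groups, and Cd82 stood above it in lenvatinib libraries only.

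The surface partners of these proteins moved both ways. Of 10 tested integrin and immunoglobulin-type partners 3 rose, 3 fell and 4 did not pass, beside 28.2% called over all rows tested. The median log2 fold change of these partners was 0.00. The direct partners of CD9 and CD81 also split: Igsf8 rose to 82.3 ± 1.33 CPM in lenvatinib libraries, against 69.1 ± 0.812 CPM in untreated libraries (0.25 ± 0.04, adjusted p = 5.16e-07), and Ptgfrn fell to 519.7 ± 9.51 CPM with lenvatinib, against 605 ± 14.3 CPM without it (-0.22 ± 0.03, adjusted p = 1.35e-08). Ptgfrn stood above Igsf8 by 3.07 ± 0.0627 times per length with lenvatinib and by 4.26 ± 0.109 times without it. Hbegf, the membrane-bound growth factor that associates with CD9, had 48.5 ± 1.28 CPM with lenvatinib and 29.0 ± 1.03 CPM without it, the largest change of the list at 0.74 ± 0.05 (adjusted p = 1.14e-15). The laminin receptor subunit Itga6 rose by 0.27 ± 0.03 (adjusted p = 4.33e-09), while the muscle laminin receptor Itga7 (-0.04 ± 0.02, adjusted p = 0.257) and the shared chain Itgb1 (0.04 ± 0.02, adjusted p = 0.266), both named after their values were seen, did not pass. Cd36, a fatty acid receptor found with CD9, fell by 0.24 on the log2 scale (SE 0.04, adjusted p = 8.05e-07), and Igsf3, a partner of Tspan7, fell by 0.14 (SE 0.04, adjusted p = 7.06e-03), a call lost without untreated replicate 2 (adjusted p = 0.0513).

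**Figure D3:**
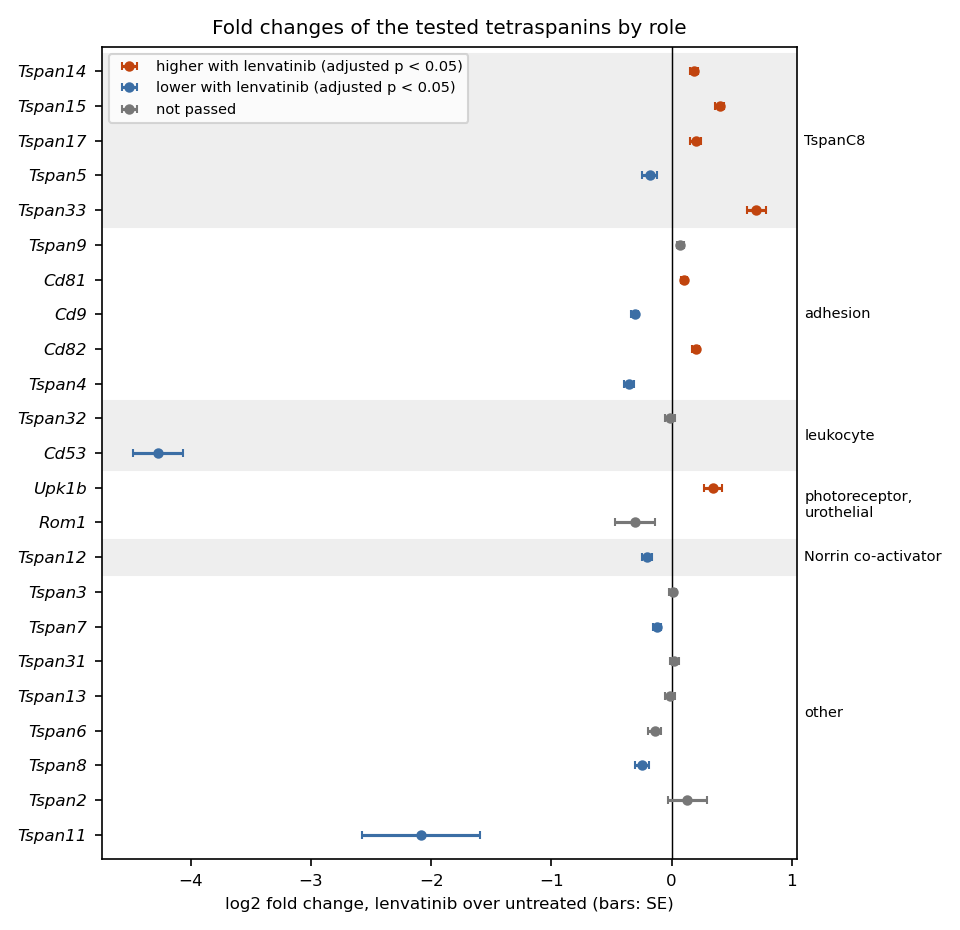
Log2 fold changes (lenvatinib over untreated) of the 23 tested tetraspanins with SE bars, grouped by role; orange rose, blue fell and grey did not pass. TspanC8 members lie mostly right of 0, Cd53 at -4.27 and Tspan11 at -2.08 lie far left, and the others lie between Tspan4 at -0.35 and Tspan33 at 0.70.

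Transcripts of genes of myoblast fusion, a process that CD9 and CD81 are known to limit in regenerating mouse muscle, did not all share a direction. Of 5 tested, 3 rose, 1 fell and 1 did not pass, beside 28.2% called over all rows tested. Their median log2 fold change was 0.17, beside 0.00 over all rows tested. Mymk, the fusogen of the first step of fusion, had 869.9 ± 14.6 CPM in lenvatinib libraries and 772 ± 31.4 CPM in untreated ones (0.17 ± 0.03, adjusted p = 3.56e-06). Mymx, which acts with it and is named after its value was seen, did not pass (-0.06 ± 0.03, adjusted p = 0.255). The adhesion molecule Jam2 rose by 0.30 ± 0.03 (adjusted p = 6.4e-11). Jam3 rose by 0.17 ± 0.06 (adjusted p = 0.0368), a call lost with DESeq2 (adjusted p = 0.111) and without any one of 5 of the 6 libraries (adjusted p 0.05 to 0.144), and Myof, a membrane repair protein, fell by 0.16 on the log2 scale (SE 0.03, adjusted p = 8.18e-05). Myog and most other muscle markers were higher as well, and their part in these differences was not tested.

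The leukocyte tetraspanins gave the largest difference of the family in a single gene. Cd53, a surface protein of nearly all leukocytes, had 8, 10 and 14 counts in lenvatinib libraries (0.323, 0.409 and 0.432 CPM), against 171, 229 and 217 counts in untreated libraries (6.42, 8.97 and 7.54 CPM). Lenvatinib libraries were all near the floor of 3 counts, which equals 0.0926 to 0.123 CPM, and untreated ones were not; these floors cover counting error only. The mean was 0.388 ± 0.0575 CPM with lenvatinib and 7.64 ± 1.27 CPM without it, and the fitted level was 19.3-fold lower with lenvatinib (log2 fold change -4.27). This is a description with no test, because the fall of Cd53 was known when the family was chosen and only its untreated counts brought it past the filter. Per length it ranked far below the adhesion tetraspanins even in untreated cells, at 3.80 CPM per kb.

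Most genes that mark leukocytes had rows near 0 in both groups. As the Rps10 row showed, a row near 0 in this table need not mean an unused gene. Of 13 leukocyte and macrophage markers 2 (Adgre1 and Tyrobp) had no count in any library, and 9, these included, had under 20 counts over all 6. Ptprc, the general leukocyte antigen CD45, had no count in lenvatinib libraries and 2 in untreated ones, and Csf1r had 6 counts in lenvatinib libraries and 7 in untreated ones. Summed over the list, the level was 5.96 to 6.62 CPM in lenvatinib libraries and 6.93 to 8.02 CPM in untreated libraries, most of it from Cd14, the receptor for bacterial lipopolysaccharide. Cd14 fell by 0.54 on the log2 scale (SE 0.13, adjusted p = 1.48e-03), with 3.52 ± 0.242 CPM with lenvatinib and 5.11 ± 0.09 CPM without it, while Cd68, Itgam and Lyz2 did not pass; Lyz2 passed as higher without untreated replicate 1 (adjusted p = 0.0415). Any part of leukocyte content in the difference of Cd53 was not tested.

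The only other leukocyte tetraspanin that was tested did not move with Cd53. Tspan32, best known from blood cells, had 59.6, 60.2 and 56.3 CPM in lenvatinib libraries and 57.4, 61.5 and 58.9 CPM in untreated libraries. These ranges overlap almost fully, and the log2 fold change was -0.02 ± 0.04 (adjusted p = 0.833, 95% interval -0.10 to 0.07). Cd37 had no count in any library and could not be compared.

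**Figure D4:**
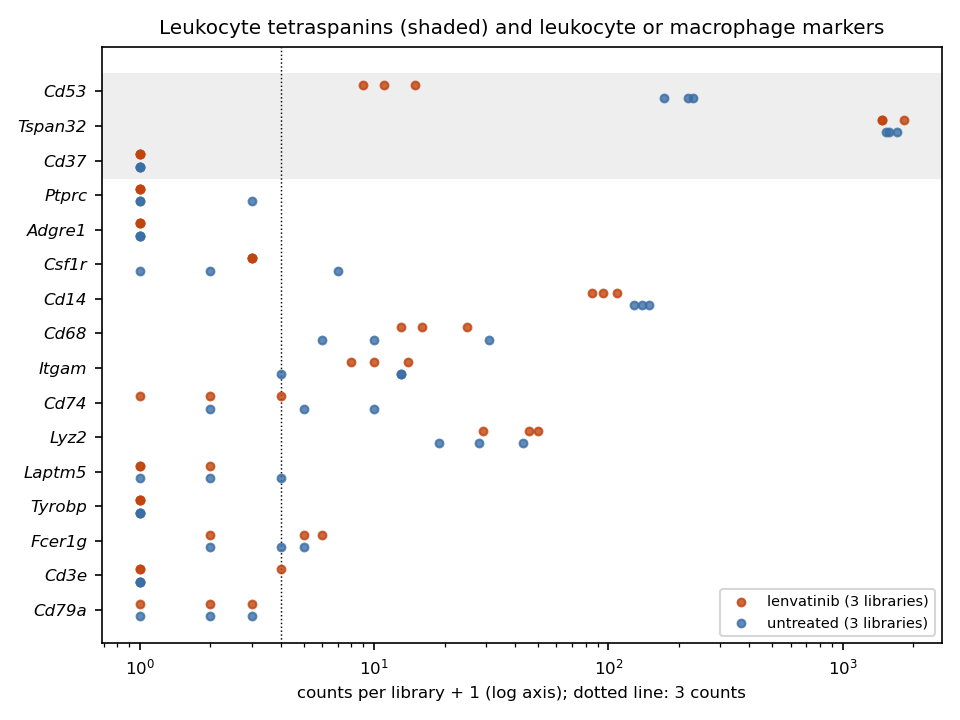
Counts plus 1 per library on a log axis for the leukocyte tetraspanins (shaded) and 13 leukocyte and macrophage markers, lenvatinib above untreated in each row; the dotted line marks 3 counts. Cd53 is the row with the widest gap between groups, while Ptprc, Adgre1 and Tyrobp stay at 0 to 2 counts in every library.

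Tetraspanins named for the bladder and the retina were also transcribed in these cells. Upk1b, a subunit of the plaques of the bladder lining, had 15.5, 17.5 and 16.8 CPM in lenvatinib libraries, against 13.2, 13.3 and 12.8 CPM in untreated ones. It rose beyond the spread between libraries, at 0.34 ± 0.08 on the log2 scale (adjusted p = 3.9e-04). Rom1, which shapes the rims of photoreceptor discs, had 2.79, 2.08 and 2.96 CPM with lenvatinib and 2.82, 3.52 and 3.40 CPM without it. Its groups overlapped, with a log2 fold change of -0.30 ± 0.17 (adjusted p = 0.188). Upk1a had 28 counts in lenvatinib libraries and 25 in untreated ones, Prph2 had none, and each of 6 urothelial and photoreceptor markers had under 20 counts over all libraries.

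Tspan12, which strengthens signalling of the ligand Norrin through its receptor Frizzled4, fell while that receptor rose. It had 60.0, 63.7 and 61.0 CPM in lenvatinib libraries, against 72.1, 67.0 and 73.7 CPM in untreated libraries. The lowest untreated library was close to the highest lenvatinib one, and the log2 fold change was -0.21 ± 0.04 (adjusted p = 1.08e-04). Fzd4, the receptor, had 13.5 ± 1.44 CPM with lenvatinib and 8.90 ± 0.404 CPM without it (0.60 ± 0.09, adjusted p = 8.8e-07). The co-receptor Lrp5 rose by 0.15 ± 0.03 (adjusted p = 6.88e-04), and its relative Lrp6 did not pass (0.08 ± 0.04, adjusted p = 0.0913), except without lenvatinib replicate 1 (adjusted p = 0.0386). Ndp, which encodes Norrin itself, had no count in any library.

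**Figure D5:**
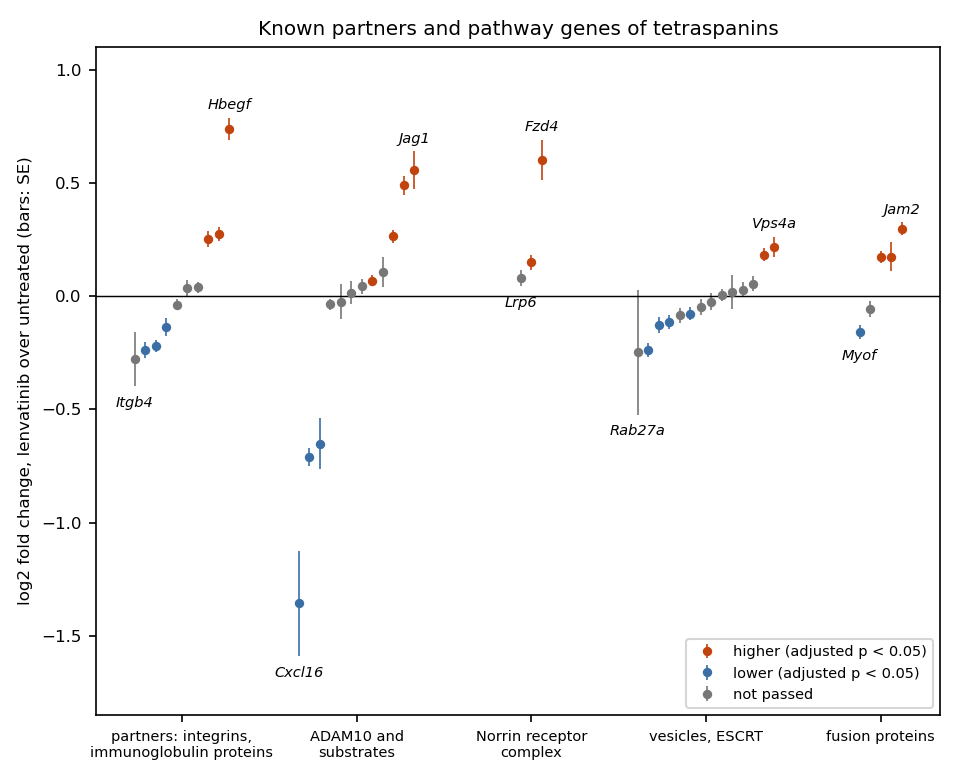
Log2 fold changes (lenvatinib over untreated) with SE bars of the tested genes in 5 lists of tetraspanin partners and pathways, ordered within each list; orange rose, blue fell, grey did not pass, and the lowest and highest gene of each list is named. Each list except the Norrin receptor complex holds genes on both sides of 0, from Cxcl16 at -1.36 to Hbegf at 0.74.

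Of the 8 remaining tested tetraspanins, none rose, 3 fell and 5 did not pass, beside 13.3% called higher and 14.9% lower over all rows tested. Tspan7, a protein of neurons and other cells that is mutated in a human intellectual disability, had 102, 108 and 104.5 CPM in lenvatinib libraries and 110.2, 118 and 113.5 CPM in untreated ones. The groups did not overlap, and the log2 fold change was -0.12 ± 0.03 (adjusted p = 5.76e-03). Tspan8, best known from epithelial tumours, had 26.4, 25.0 and 24.1 CPM with lenvatinib and 27.8, 29.7 and 31.8 CPM without it. It too separated the groups, at -0.25 ± 0.06 on the log2 scale (adjusted p = 1.25e-03). Tspan11 was rare, with 7, 1 and 5 counts in lenvatinib libraries against 11, 18 and 27 counts in untreated libraries. No library of one group reached the other, but the sums were only 13 counts with lenvatinib and 56 without it, and the fitted log2 fold change was -2.08 ± 0.49. No p is given for Tspan11, since only its untreated counts brought it past the filter.

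Tspan6, linked in human cells to vesicle release, had 31.1, 30.9 and 28.7 CPM in lenvatinib libraries and 33.4, 31.8 and 34.5 CPM in untreated ones. The groups lay next to each other without overlap, and the log2 fold change of -0.14 ± 0.05 missed the threshold (adjusted p = 0.0521), which it passed without untreated replicate 2 (0.0338). Tspan3, Tspan31, Tspan13 and Tspan2 overlapped between groups, with log2 fold changes between -0.01 and 0.13 and adjusted p-values from 0.613 to 0.88. The 95% intervals of the first 3 lay between -0.095 and 0.093, while that of Tspan2, at about 3 CPM, ran from -0.19 to 0.45. Tspan31 shares 641 bases with Cdk4 on the other strand, a row with 26519 counts against its own 15906. How reads in shared bases were counted is not given, so the value of Tspan31 may have gained or lost reads there. Tspan18 had 2, 3 and 2 counts with lenvatinib and none without it, and Tspan1 had none with lenvatinib and 1 count without it, all at or under the floor.

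Genes of vesicle formation, a process that carries tetraspanins out of the cell, moved both ways. Of 14 tested, 2 rose, 4 fell and 8 did not pass. Over all rows tested 28.2% were called, and 33.9% among those with a mean of at least 10 CPM. Their median log2 fold change was -0.04. The heparan sulphate proteoglycans split: Sdc4 rose to 221 ± 0.277 CPM in lenvatinib libraries, against 195 ± 5.05 CPM in untreated ones (0.18 ± 0.03, adjusted p = 2.78e-06), and Sdc1 fell to 169 ± 8.19 CPM with lenvatinib, against 199.6 ± 1.88 CPM without it (-0.24 ± 0.03, adjusted p = 6.54e-08). Vps4a, the ATPase that takes the membrane-cutting ESCRT filaments apart, rose by 0.22 ± 0.05 (adjusted p = 2.05e-04), and the lipid raft protein Flot1 fell by 0.13 (SE 0.03, adjusted p = 3.67e-03). The other 2 that fell, named after their values were seen, were the syndecan adaptor Sdcbp (-0.12 ± 0.03, adjusted p = 4.86e-03) and the filament subunit Chmp4b (-0.08 ± 0.03, adjusted p = 0.0442), which lost its call without any one of 5 of the 6 libraries (adjusted p 0.0699 to 0.156).

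Several members are neighbours on a chromosome; differences between neighbours were not tested. In the deposited positions, whose build is not that of the mm10 reference, Tspan11 and Tspan9 lie 7.4 kb apart on chromosome 6. No counted row lies between them. Tspan11 was lower, with 13 counts in lenvatinib libraries and 56 in untreated ones, and is given without a p. Tspan9 narrowly missed the threshold in the other direction (log2 fold change 0.07 ± 0.03). Tspan32 and Cd81, 33.1 kb apart on chromosome 7, have no counted row between them either; Tspan32 did not pass and Cd81 rose. Of Cd151 and Tspan4, 3.8 kb apart on the same chromosome, the first was not tested and the second fell. Cd53, at 106667237 to 106697465 on chromosome 3 (minus strand), is separated from Tspan2, the nearest member, by 74 rows with counts.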

How the data were processed

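Whole-number counts per gene row, not normalized, were used as the authors deposited them for 6 libraries of differentiated C2C12 cells. Per the labels' protocols Hisat2 2.0.1 was the aligner, and the submitters' processing notes name HTSeq 0.6.1 and mm10. No source used here gives the library kit or the strand setting. Deposited positions match GENCODE M21 for 0 of 30 members, so they are printed without a build. The deposited feature length, taken in bases, served for CPM per kb.

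Rows passing filterByExpr (minimum count 10, minimum total 15) were tested with the edgeR 4.0.16 quasi-likelihood test in R 4.3.3 (robust, TMM factors 0.9956 to 1.0074, both groups, no covariate), with Benjamini-Hochberg adjustment over 14989 rows. The SE was derived from the F statistic. The biological coefficient of variation was 3.6%. Within groups, libraries differed beyond sampling noise (chi-square per degree of freedom 2.78 to 5.6). In total 16 alternatives were run, with limma 3.58.1 and DESeq2 1.42.0 among them.

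Members and gene lists were chosen with earlier results of these data known. All members with counts are described, and of each other list up to 4 tested genes with the smallest p plus direct partners of tetraspanins that passed; others are marked. A listed gene is not reported here. Promoter sequences are from RefSeq.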

Additional observations from a re-analysis of the deposited data

How the results depend on the processing

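Under the 16 alternatives 14 to 17 tetraspanins were called, against 15, and no called member changed direction. All counts of called members in this paragraph include Cd53, and they include Tspan11 wherever it was tested. Cd53 is described above without a test and Tspan11 without a p. Over all rows tested 28.2% were called in the main test, and no such share is given here for the alternatives. The counts are therefore a description. Leaving out each library in turn gave 14 to 17 calls, 7 to 8 higher and 7 to 9 lower, and 4 TspanC8 members rose under every alternative. DESeq2, a threshold of 0.01 and leaving out lenvatinib replicate 1, lenvatinib replicate 3 or untreated replicate 3 each removed Tspan5. Tspan9 was gained with upper-quartile factors (adjusted p = 0.0286), library totals only (0.0421), no filter (0.0477), a filter of 1 CPM (0.0494) and without lenvatinib replicate 1, lenvatinib replicate 3 or untreated replicate 2 (0.0317 to 0.0437); Tspan6 was gained with the 1 CPM filter (0.0492) and without untreated replicate 2 (0.0338). The 1 CPM filter left Tspan11 untested. The median log2 fold change of all rows tested stayed between -0.0012 and 0.0097 under every alternative. The labels do not say whether replicate numbers pair the samples. Correlations of same-numbered deviations were 0.019, -0.078 and -0.011 over 9999 genes. With 3 libraries per group these show no clear shared effect of the number, but they cannot show whether cultures were paired. With the replicate number as a block 16 members were called, 8 higher and 8 lower, Tspan9 being added (adjusted p = 0.0487). The cause of these shifts was not tested. The count filter left out 7 members with 0 to 57 summed counts; without it 28 members were tested, and none of those it added was called.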
